A study of Mus musculus with 7 samples.

Results

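The nuclear-encoded subunits of the mitochondrial respiratory chain and ATP synthase were studied in lipid-droplet-laden microglia of young and old mice after brain ischemia. Genes were taken by name, as Nduf genes of complex I, Sdha to Sdhd of complex II, Uqcr genes of complex III, Cox4 to Cox8 genes of complex IV and Atp5 genes of complex V, with names ending in -ps (pseudogenes) left out and with more than 10 expected counts in 1 library or more. Of the 50686 genes in the files, 84 carried such a name and 82 passed the count minimum, namely 37 genes of complex I, 4 of complex II, 8 of complex III, 16 of complex IV and 17 of complex V. Cox8c, listed at 0 in every library, and Cox7b2, with at most 1 count, did not pass. The rule used names and a count minimum, although the set was chosen with earlier results of these data known.

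All 7 libraries came from wild-type C57BL/6 male mice 4 days after a 45-min occlusion of the middle cerebral artery (MCAo), which was followed by reperfusion. Microglia were sorted by FACS on CD11b and CD45 and on Bodipy, a dye that stains neutral lipid, and only Bodipy+ cells were sequenced. The Young group held 4 mice of 3-4 months (14C, 18C, 23C and 29C) and the Old group held 3 mice of 21-22 months (2posI, 3posI and 4posI), with 1 library per mouse. No non-ischemic or Bodipy- sample was part of the series, so every value below describes lipid-laden cells after ischemia, and the comparison of ages addresses how these cells differ between young and old mice.

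The respiratory chain passes electrons from NADH (complex I) and succinate (complex II) through ubiquinone, complex III and cytochrome c to oxygen at complex IV, and the proton gradient built on the way drives ATP synthesis by complex V. Complexes I, III, IV and V join proteins of the nuclear and of the mitochondrial genome, whereas complex II is wholly nuclear-encoded. Nuclear genes for these proteins are spread over the genome, here over 19 chromosomes, and many of them carry binding sites for NRF1, GABP and YY1, transcription factors known to act on mitochondrial genes.

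No gene of the set passed the test of old against young, yet most of them were higher in the old libraries. The quasi-likelihood test of edgeR, adjusted by the Benjamini-Hochberg method, called 0 of the 79 autosomal genes at an adjusted p under 0.05, where 0.803% of all 17559 genes tested were called, in either direction. At an unadjusted p under 0.05, 36 of the 79 genes passed, all 36 of them higher in old, against 10.1% of all genes tested that were higher in old and 18.9% in either direction. This count rested on single libraries, at 11 without 2posI, 12 without 3posI and 16 without young 14C or 18C, and 49 without 4posI. DESeq2 called 3 genes, Cox6a2, Cox5b and Ndufs6, where it called 9.51% of all genes that it gave an adjusted p. The fitted log2 fold change (old minus young) was above 0 for 73 of the 79 genes, against 48.8% of all genes tested. Every old library stood above every young library for 18 of the 79 genes, against 8.67% of all genes, and for 0 genes was every old library below every young library. The median log2 fold change of the 79 genes was 0.28, where that of all genes tested was -0.01. These genes share libraries, so their counts describe 7 mice and are not independent evidence gene by gene.

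**Figure D1:**
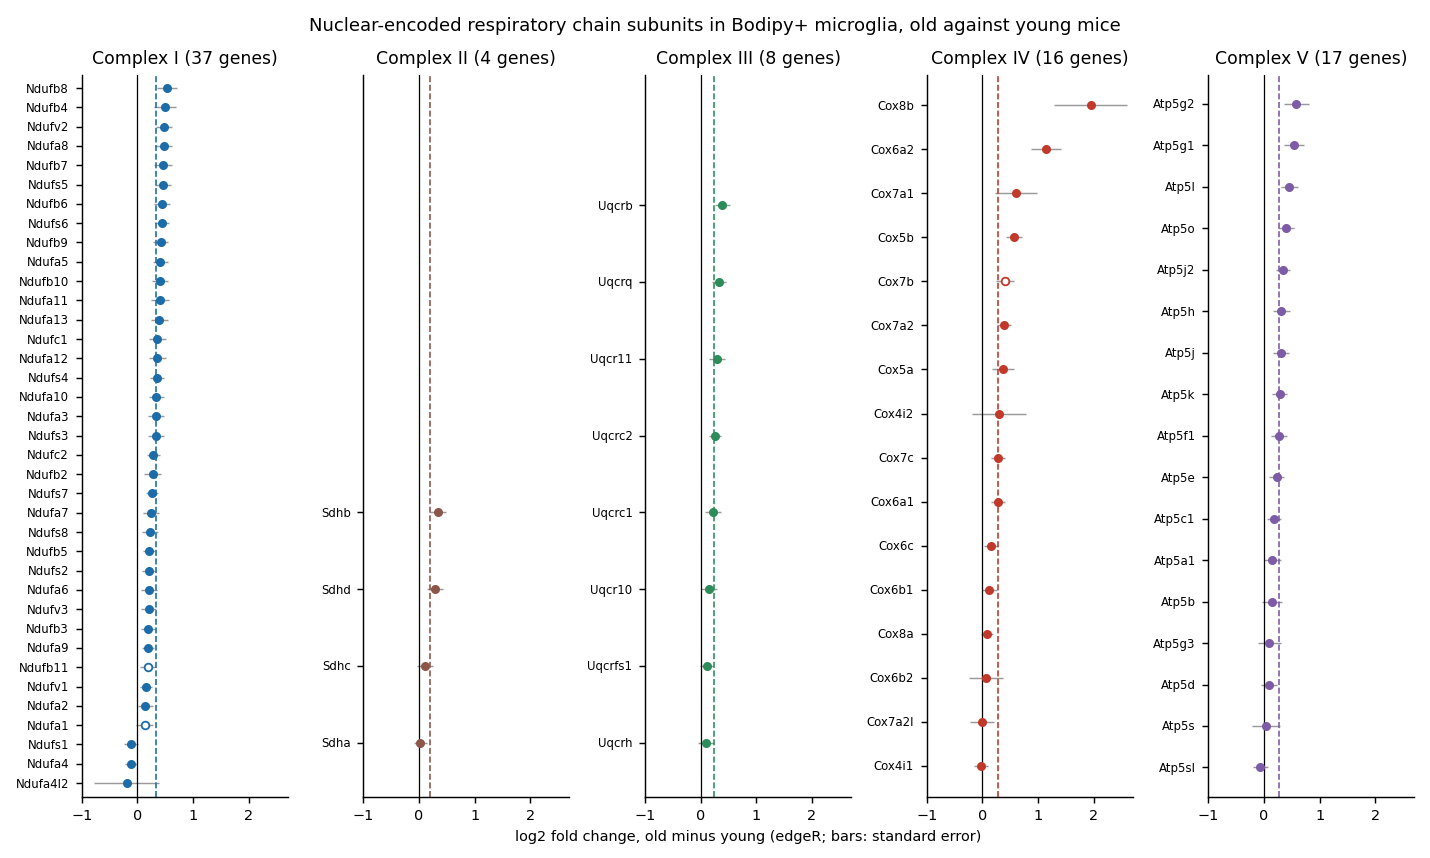
Log2 fold change (old minus young, edgeR) of each of the 82 genes with its standard error as a bar, by complex; dashed lines mark the median of the autosomal genes of a complex and open circles the 3 X-linked genes, from a fit that kept chromosome X. Most points lie between 0 and 0.60, and Cox6a2 and Cox8b of complex IV lie farther out.

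The difference was carried by 2 of the 3 old mice. The level used here for differences is the TMM CPM, the count scaled to a common library size with TMM factors, which does not correct for gene length. Summed over the autosomal genes of the set, it was 8313, 8066, 9058 and 9109 CPM in young 14C, 18C, 23C and 29C, and 10702, 10912 and 8872 CPM in old 2posI, 3posI and 4posI. The means were 8636 ± 527 CPM (SD, n = 4) in the young and 10162 ± 1122 CPM (SD, n = 3) in the old group. Libraries 2posI and 3posI stood above all young libraries in each of the complexes I to V, whereas 4posI lay within the young range in each of them. Of the 79 genes, 69 had 4posI as the lowest of the old libraries, and 53 were higher in 4posI than in the young mean, compared with 74 in 2posI and 72 in 3posI.

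On the authors' TPM, which is scaled within each library and per length, the 82 genes summed to 18060 to 19775 TPM in the young and to 19813, 20989 and 21821 TPM in the old libraries. The groups did not overlap on this scale, although 4posI (19813 TPM) was next to young 23C (19775 TPM). As a share of all expected counts, the set took 0.814% to 0.893% of the young and 0.912% to 1.02% of the old libraries.

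**Figure D2:**
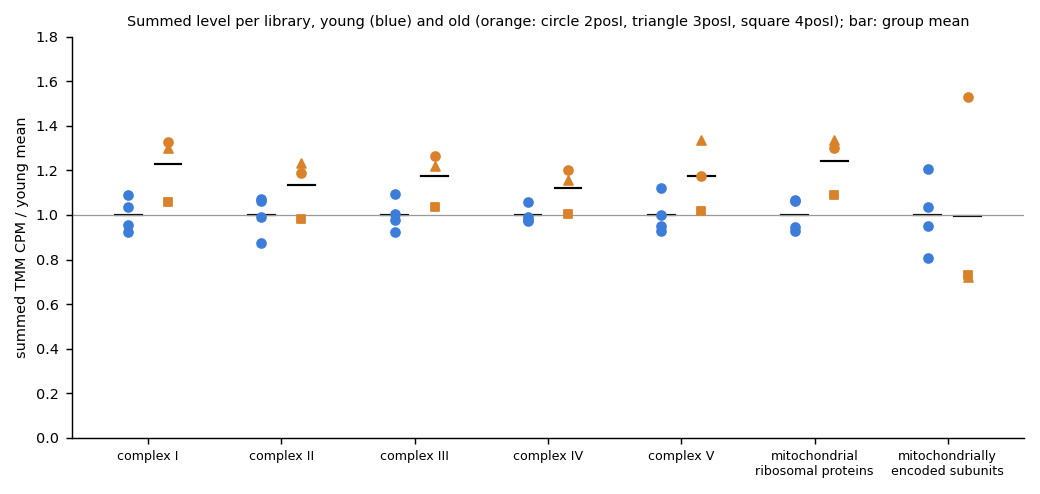
Summed TMM CPM of the autosomal genes of each complex, of the mitochondrial ribosomal proteins and of the mitochondrially encoded subunits, divided by the young mean, for each library; black bars are group means. Libraries 2posI and 3posI lie above the young points in each nuclear group and 4posI lies among or next to them, while 2posI alone stands above the young points for the mitochondrially encoded subunits.

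Several properties of the libraries differed between the ages or set 3posI apart. Library 3posI had 3278 CPM over the 10 monocyte and macrophage markers, against 133 to 479 CPM in young and 251 and 532 CPM in the other old libraries, with Chil3 at 1426 CPM and Ccr2 at 231 CPM. Its 11 tested microglia markers summed to 16339 CPM, against 28635 to 39074 CPM elsewhere. Microglia markers were abundant in every library, in keeping with the label, and 9 of the 11 had a fitted value below 0 in old. All 10 monocyte and macrophage markers had a fitted value above 0, with a median log2 fold change of 1.68, and of 0.52 without 3posI, while 0 were called. Ly6c2, a marker of inflammatory monocytes, was at 2.86, 1.16, 1.22 and 0.946 CPM in young and at 15.3, 162 and 9.59 CPM in old libraries, so each old library stood above the young, as was also the case for Plac8. Of the 8 endothelial and pericyte markers 7 had a fitted value below 0, with summed levels of 67.7 to 148 CPM in young and 55.7 to 85.1 CPM in old libraries, and Slco1a4, a transporter of brain endothelium, was called lower in old (log2 fold change of -1.66, edgeR, adjusted p = 0.0280). Ribosomal RNA genes held 3.52% to 4.24% of the counts of young libraries and 1.62% to 2.84% of those of old libraries. Genes with under 1 kb of exon held 4.06% to 5.42% of the young and 5.64% to 6.79% of the old counts. The part of these properties in the results was not tested. Without 3posI the median log2 fold change of the set was 0.24, with 71 of 79 genes higher in old and 12 at an unadjusted p under 0.05. In bulk RNA a larger share of cells of a type and more RNA per cell cannot be told apart.

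Levels within a library were compared on the authors' TPM. The 82 genes together took 1.97% of all TPM on average, of which complex I summed to 6570, complex IV to 5673, complex V to 4462, complex III to 2283 and complex II to 682 TPM (means of 7 libraries). Cox4i1, the ubiquitous form of subunit 4 that helps to regulate cytochrome c oxidase, was the highest gene of the set at 1087 ± 45 TPM (SD, n = 4) in the young and 994 ± 32.8 TPM (SD, n = 3) in the old group. The highest genes of the other complexes were Atp5b, the catalytic beta subunit of ATP synthase (596 TPM on average), Uqcrq (463 TPM) of complex III, Ndufa3 (462 TPM) of complex I and Sdhb (223 TPM), the iron-sulfur protein of complex II. Lowest in their complexes were Ndufa4l2 (0.899 TPM), Cox4i2 (1.30 TPM), Atp5s (6.09 TPM), Uqcrc2 (73.4 TPM) and Sdhd (118 TPM). Expected counts were at least 1000 in every library for 72 of the 82 genes and at most 100 in every library for 4 genes, which bounds the precision of the lowest.

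**Figure D3:**
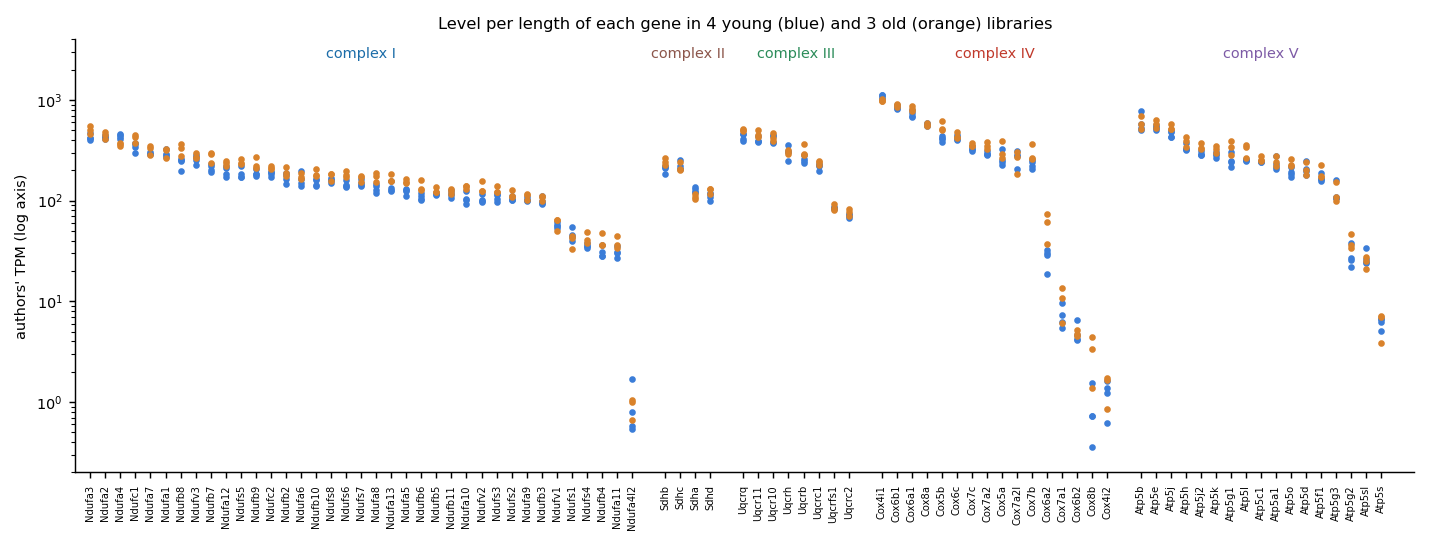
Authors' TPM (log axis) of each of the 82 genes in the 4 young (blue) and 3 old (orange) libraries, ordered by the mean within each complex. Most genes lie between 30 and 1000 TPM, and the alternative isoforms Ndufa4l2, Cox7a1, Cox6b2, Cox8b and Cox4i2 lie at about 1 to 10 TPM.

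The median difference was highest in complex I, the entry point for NADH, although differences between complexes were not tested. Its 35 autosomal genes had a median log2 fold change of 0.34, 32 of them were higher in old, and 21 had an unadjusted p under 0.05. The 26 accessory subunits, which surround the catalytic core and serve assembly and stability, had a median of 0.36 and were all above 0, with 18 at an unadjusted p under 0.05. The 11 Ndufb and Ndufc genes among them, whose products sit in the membrane arm, had a median of 0.41. The 7 core subunits, most of which carry flavin or iron-sulfur centres or bind quinone, had a median of 0.23, with 6 above 0. The difference between accessory and core subunits was not tested.

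Of complex I, the 3 genes with the smallest p were Ndufs6, Ndufs5 and Ndufv2. Ndufs6, a zinc-binding accessory subunit, was at 50.9, 50.4, 58.6 and 56.1 CPM in young and at 75.8, 80.9 and 62.2 CPM in old libraries. The groups did not overlap, with 4posI nearest to the young, and the log2 fold change was 0.43 ± 0.13 SE (edgeR, adjusted p = 0.132). Ndufs5, an accessory subunit of the intermembrane space side, was at 58.2, 57.0, 75.0 and 66.8 CPM in young and at 91.1, 96.9 and 77.5 CPM in old libraries. Its lowest old library was just above young 23C, and the log2 fold change was 0.46 ± 0.14 SE (edgeR, adjusted p = 0.140). Ndufv2, a core subunit with an iron-sulfur cluster, was at 66.9, 62.4, 78.3 and 69.5 CPM in young and at 95.8, 114 and 79.7 CPM in old libraries. Here too 4posI lay next to young 23C, with a log2 fold change of 0.48 ± 0.15 SE (edgeR, adjusted p = 0.143). Ndufb8, named after its values were seen, had the highest fitted value of the complex at 0.53 ± 0.18 SE (edgeR, adjusted p = 0.167), with 4posI (124 CPM) below young 29C (128 CPM).

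Ndufs1, the largest core subunit, which was also named after its values were seen, had a fitted value below 0. It was at 58.9, 59.0, 71.4 and 58.9 CPM in young and at 51.8, 64.1 and 56.2 CPM in old libraries, with a log2 fold change of -0.11 ± 0.13 SE (edgeR, adjusted p = 0.665). The groups overlapped, and young 23C stood above the other young libraries. Ndufa4, named as a complex I subunit and since known to associate with complex IV, had a log2 fold change of -0.12 ± 0.11 SE (edgeR, adjusted p = 0.592), at 135 ± 5.73 CPM (SD, n = 4) in the young and 125 ± 8.26 CPM (SD, n = 3) in the old group. Its paralog Ndufa4l2, a hypoxia-inducible gene, was near the detection limit at 10 to 46 counts per library.

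Complex II, which links the TCA cycle to the chain, had a median log2 fold change of 0.20 over its 4 genes. Sdhb was at 166, 139, 170 and 180 CPM in young and at 218, 227 and 173 CPM in old libraries, with 4posI inside the young range and a log2 fold change of 0.33 ± 0.15 SE (edgeR, adjusted p = 0.261). Sdhd, a membrane anchor, had a log2 fold change of 0.29 ± 0.14 SE (edgeR, adjusted p = 0.311), and Sdhc, the other anchor, of 0.11 ± 0.14 SE (edgeR, adjusted p = 0.707). Sdha, the flavoprotein that oxidizes succinate, was at 200, 176, 213 and 196 CPM in young and at 203, 212 and 183 CPM in old libraries. These values interleave, and the log2 fold change of 0.02 ± 0.12 SE (edgeR, adjusted p = 0.937) turned below 0 with upper-quartile scaling and with the effective length as an offset. Every old library stood above every young library for 0 of the 4 genes of complex II, against 8.67% of all genes tested. With so few genes, this count says little about the complex.

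Complex III, which passes electrons from ubiquinol to cytochrome c, had a median log2 fold change of 0.24, and all 8 genes were above 0. Uqcrb, a small subunit near the quinone site, was at 89.5, 84.2, 98.6 and 87.7 CPM in young and at 112, 141 and 99.9 CPM in old libraries, with a log2 fold change of 0.39 ± 0.14 SE (edgeR, adjusted p = 0.189). Uqcrc2, a core protein, was at 84.4, 82.0, 88.5 and 93.7 CPM in young and at 104, 110 and 99.9 CPM in old libraries, with a log2 fold change of 0.26 ± 0.10 SE (edgeR, adjusted p = 0.226). Uqcrq was at 102, 95.1, 113 and 123 CPM in young and at 148, 136 and 123 CPM in old libraries, with a log2 fold change of 0.32 ± 0.13 SE (edgeR, adjusted p = 0.227). For these 3 genes the old libraries stood above the young, and for Uqcrq 4posI and young 29C were almost level. Uqcrfs1, the Rieske iron-sulfur protein, and Uqcrh, the hinge protein, had log2 fold changes of 0.11 and 0.09, which turned to -0.02 and -0.04 when a trend with gene length was removed.

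Complex IV, cytochrome c oxidase, held the genes with the smallest p of the set. Its 15 autosomal genes had a median log2 fold change of 0.29, 13 were above 0 and 6 had an unadjusted p under 0.05. Removing a trend with gene length lowered the median to 0.17.

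Cox6a2 encodes the form of subunit 6a known from heart and skeletal muscle. It lies at chr7:128205435-128206387 on the minus strand (GRCm38). Its level was 13.6, 14.2, 8.43 and 13.9 CPM in young and 37.8, 18.2 and 27.0 CPM in old libraries. All 3 old libraries stood above all 4 young ones, with 3posI lowest among the old. The fold change was 2.21, or 1.14 ± 0.27 SE on the log2 scale (edgeR, adjusted p = 0.0873), and without 3posI it was 1.37 with an adjusted p of 0.0434, the only edgeR fit with a library left out in which a gene of the set was called. The ubiquitous form Cox6a1 was at 252, 250, 292 and 294 CPM in young and at 333, 335 and 320 CPM in old libraries, with a log2 fold change of 0.28 ± 0.12 SE (edgeR, adjusted p = 0.263). Cox6a2 made up 3.72% ± 0.976 (SD, n = 4) of the summed Cox6a TPM in young and 6.48% ± 2.14 (SD, n = 3) in the old group, and this share overlapped between the ages, since 3posI (4.31%) lay below young 18C (4.50%).

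Genes that overlap Cox6a2 or lie near it were read beside it. Its exons overlap an exon of Itgad, which lies on the other strand, and the library preparation does not keep the strand. Itgad was at 0.235 to 0.346 CPM in young and 0.0298 to 0.216 CPM in old libraries. The levels of both genes come from the same estimated division of reads, so they cannot show how shared reads were split. Itgax (CD11c), an integrin gene of activated microglia and dendritic cells that ends 54777 bases away, was at 15.9 to 27.8 CPM in young and 43.7 to 47.1 CPM in old libraries, with a log2 fold change of 1.00 (adjusted p = 0.0565, edgeR). Armc5, 30954 bases away on the other side, had a log2 fold change of -1.10 (adjusted p = 0.0524, edgeR). Between Cox6a2 and Armc5 on that side, 9130023H24Rik (28070 bases away) was at 7.65 to 11.3 CPM in young and 6.87 to 10.5 CPM in old libraries, with a log2 fold change of -0.12 (adjusted p = 0.792, edgeR). The part of these genes in the Cox6a2 value was not tested. Striated muscle markers were nearly absent, with 2 of the 6 genes tested and a summed level of 0.693 to 2.07 CPM. The expected count of Cox6a2 was whole (within 0.001) in 3 of 7 libraries. In the young libraries it was close to whole, at 629.99, 635.97, 429.98 and 643.99. A near-whole count does not show how many reads also matched other loci.

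Cox5b, a zinc-binding subunit of the matrix side, was at 106, 94.0, 112 and 114 CPM in young and at 157, 184 and 131 CPM in old libraries. The groups did not overlap, and the log2 fold change was 0.56 ± 0.14 SE (edgeR, adjusted p = 0.101 there and 0.0137 in DESeq2). Its expected counts were whole in no library. Cox7a2, the ubiquitous form of subunit 7a, was at 98.2, 98.3, 98.8 and 114 CPM in young and at 134, 151 and 118 CPM in old libraries, with a log2 fold change of 0.39 ± 0.12 SE (edgeR, adjusted p = 0.155). Here the groups did not overlap and 4posI was again nearest to the young.

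Cox4i1 was nearly level, at 536, 543, 544 and 543 CPM in young and at 584, 529 and 476 CPM in old libraries, with a log2 fold change of -0.03 ± 0.13 SE (edgeR, adjusted p = 0.916). The young libraries were close together, and the old libraries stood on both sides of them. Cox6b1 and Cox8a, the ubiquitous forms of subunits 6b and 8, had log2 fold changes of 0.13 ± 0.13 SE and 0.09 ± 0.11 SE, with adjusted p of 0.639 and 0.721 (edgeR). Cox7a2l, an assembly factor of respiratory supercomplexes, ranged from 149 to 225 CPM in young and from 149 to 254 CPM in old libraries, and its log2 fold change of -0.01 ± 0.21 SE changed sign under several settings. Cox7c and Cox5a, named after their values were seen, had log2 fold changes of 0.29 ± 0.13 SE and 0.36 ± 0.20 SE.

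The other tissue-restricted isoforms of complex IV were sparse. Cox8b, known from muscle and brown fat, had 4 to 38 counts per library, which gave 0.346, 0.157, 0.0785 and 0.172 CPM in young and 1.13, 0.332 and 0.734 CPM in old libraries. The old 3posI lay below young 14C, and the log2 fold change of 1.94 ± 0.65 SE (edgeR, adjusted p = 0.169) rests on these few counts. Cox8b made up at most 0.798% of the summed Cox8 TPM. Cox7a1, the muscle form of subunit 7a, had 58 to 144 counts and a log2 fold change of 0.60 ± 0.38 SE (edgeR, adjusted p = 0.418), Cox4i2, the lung form of subunit 4, 0.29 ± 0.48 SE (edgeR, adjusted p = 0.780), and Cox6b2, the testis form of subunit 6b, 0.06 ± 0.30 SE (edgeR, adjusted p = 0.936).

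Complex V, the ATP synthase, had a median log2 fold change of 0.27 over its 17 genes, with 16 above 0. The 10 genes of the membrane part and the stalks had a median of 0.33 and held the 5 genes with an unadjusted p under 0.05, whereas the 5 genes of the catalytic F1 part, Atp5a1, Atp5b, Atp5c1, Atp5d and Atp5e, had a median of 0.15 and 0 such genes. The difference between these parts was not tested. Atp5s and Atp5sl, which carry the name but are not structural subunits, had log2 fold changes of 0.04 and -0.07.

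Atp5g1, 1 of the 3 genes for subunit c of the proton-driven ring, was at 98.9, 84.4, 121 and 108 CPM in young and at 160, 173 and 114 CPM in old libraries. Library 4posI lay below young 23C, and the log2 fold change was 0.54 ± 0.18 SE (edgeR, adjusted p = 0.168). The 3 genes encode the same mature protein and differed in their values. Atp5g2 had a log2 fold change of 0.58 ± 0.22 SE (edgeR, adjusted p = 0.205) at 13.7 ± 3.20 CPM (SD, n = 4) in the young and 20.5 ± 4.44 CPM (SD, n = 3) in the old group, whereas Atp5g3 had 0.09 ± 0.20 SE (edgeR, adjusted p = 0.838), and stood at -0.13 once 3posI was left out. Of the summed Atp5g TPM, Atp5g1 made up 59.7% to 65.5% in young and 66.0% to 71.6% in old libraries, and Atp5g3 28.6% to 32.8% and 20.8% to 26.0%, so both shares were separate between the ages, with no test of them made. Atp5g1 and Atp5g2 had no whole expected count in any library, which means that their reads were partly divided among similar loci.

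Atp5l, subunit g, was at 85.8, 82.8, 80.1 and 90.6 CPM in young and at 132, 130 and 86.4 CPM in old libraries, so that 4posI lay among the young and the other old libraries well above, with a log2 fold change of 0.46 ± 0.16 SE (edgeR, adjusted p = 0.181). Atp5j2, subunit f, was at 107, 105, 116 and 117 CPM in young and at 143, 157 and 123 CPM in old libraries without overlap, with a log2 fold change of 0.34 ± 0.12 SE (edgeR, adjusted p = 0.184). Atp5b was at 492, 502, 675 and 484 CPM in young and at 533, 709 and 546 CPM in old libraries. Young 23C and old 3posI were its high libraries, and the log2 fold change of 0.15 ± 0.18 SE (edgeR, adjusted p = 0.691) was 0.00 without 3posI.

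**Figure D4:**
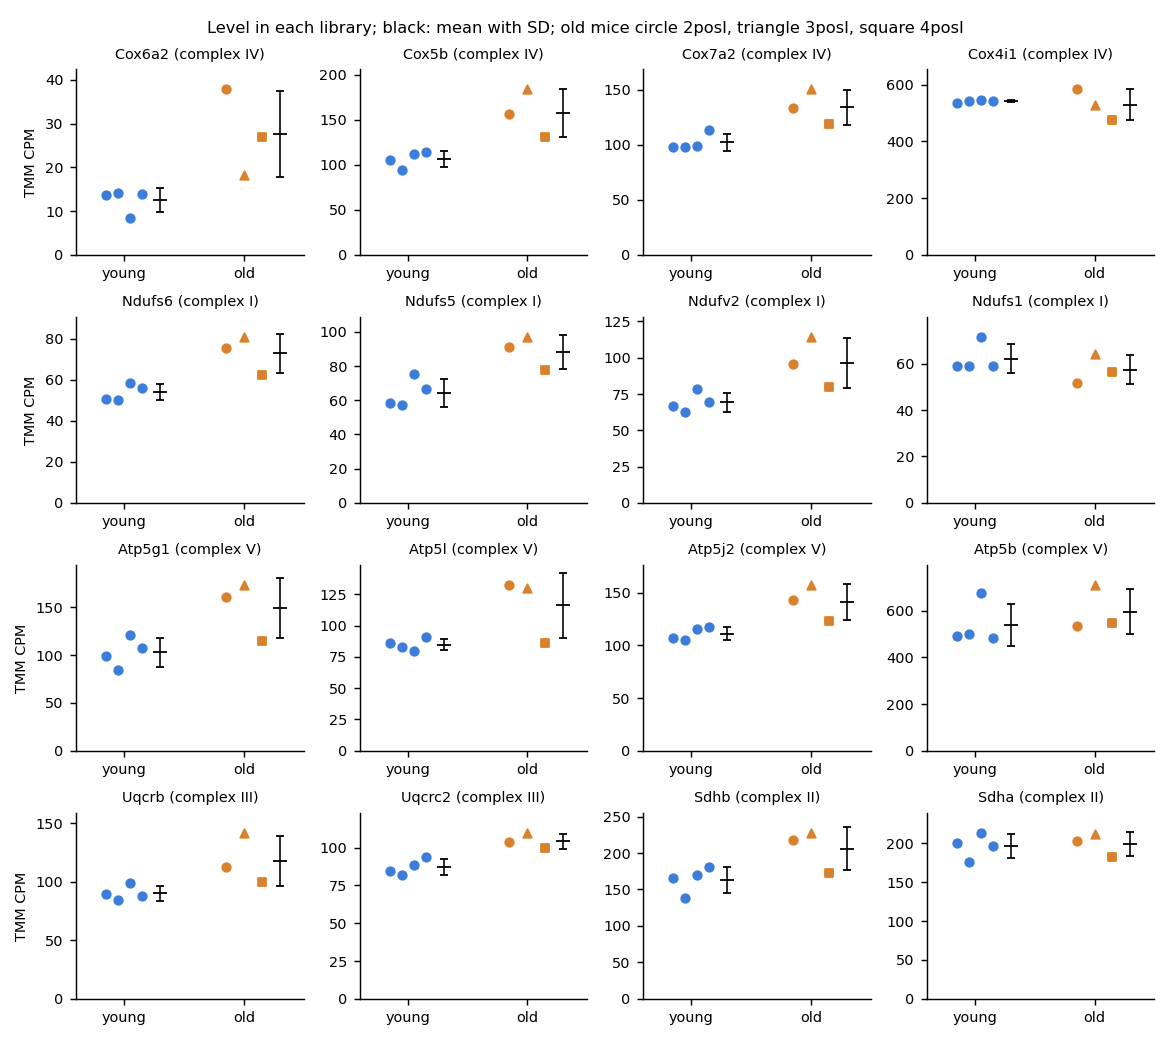
TMM CPM of 16 genes in each library, with the group mean and SD in black and each y axis starting at 0. In most panels the old square (4posI) lies next to the young points and the circle (2posI) and triangle (3posI) above them, whereas Cox4i1, Ndufs1, Sdha and Atp5b interleave.

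The 3 X-linked genes were taken from a fit that kept chromosomes X, Y and M, in which 0.754% of all 18173 genes were called and none of these 3. Cox7b, a complex IV subunit, was at 63.9, 57.0, 72.5 and 70.7 CPM in young and at 83.1, 108 and 72.4 CPM in old libraries, with a log2 fold change of 0.41 ± 0.16 SE (edgeR, adjusted p = 0.216). Library 4posI was level with young 23C. Ndufb11 and Ndufa1 of complex I had log2 fold changes of 0.19 ± 0.14 SE (adjusted p = 0.479) and 0.13 ± 0.15 SE (edgeR, adjusted p = 0.684).

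Fold changes were also set against gene length. Across the 79 genes, Spearman's rho between effective length and log2 fold change was -0.28, and across all genes tested it was -0.07, where genes share their libraries and are not independent replicates. The 26 genes with the shortest effective lengths (267 to 496 bases) had a median log2 fold change of 0.29, the middle 26 (511 to 752 bases) of 0.31 and the 27 longest (784 to 2612 bases) of 0.22, while all tested genes within those same lengths had medians of 0.07, 0.18 and 0.00. The median was thus not highest for the shortest genes, and the all-gene median was also highest at the middle lengths. When a trend with gene length was removed from the fit, 24 of the 79 genes had an unadjusted p under 0.05, 68 were above 0 and the median was 0.23. That trend used the annotated exon length, which can differ widely from the effective length (5628 against 433 bases for Ndufb2). The fit is therefore no check of the relation with effective length.

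**Figure D5:**
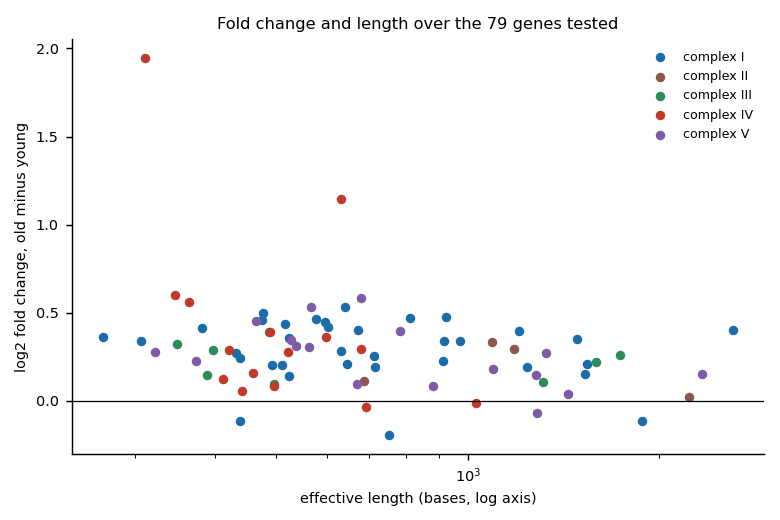
Log2 fold change (old minus young) against effective length in bases (log axis) for the 79 autosomal genes, coloured by complex. Points above 0 occur at all lengths, and the 27 longest genes have a median of 0.22.

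How reads were assigned also differed between the genes. Expected counts were whole in all 7 libraries for 40 of the 79 genes, which had a median log2 fold change of 0.23 with 37 above 0, and whole in no library for 22 genes, with a median of 0.34 and 19 above 0. Exons of 28 of the 79 genes overlap exons of another gene, and the 51 genes free of such overlap had a median of 0.28 with 48 above 0. Differences between these classes of genes were not tested.

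Promoter sequences from RefSeq (GRCm38.p6, 250 bases before to 50 after the start) were matched by symbol to 65 of the 82 genes. The letters of the NRF1 motif, GCGCANGCG, occurred on either strand in 20 of the 65 promoters (30.8%), against 7.03% of 27025 genes in the table. The YY1 letters AAGATGGCG occurred in 7 of them (10.8%, against 1.64%) and the GABP letters CCGGAAGT in 5 (7.69%, against 4.31%), and no 2 motifs shared bases in any of them. The 20 autosomal genes with the NRF1 letters had a median log2 fold change of 0.35 and the 42 without them of 0.29, a difference that was not tested. The bases before the first annotated base of Cox5b, Ndufs6 and Ndufs5, which had the smallest p among genes with an entry, and of Cox6a1, the ubiquitous counterpart of Cox6a2, are shown on the strand of the gene, with matches to any of the 3 motifs in capitals. Cox5b has no match in this stretch at chr1:36691237-36691448 (plus strand) and Ndufs6 none at chr13:73328543-73328732 (minus strand). Ndufs5 has 1 NRF1 match in chr4:123718203-123718436 (minus strand) and Cox6a1 has 3 in chr5:115348982-115349208 (minus strand). A pair of the Cox6a1 matches overlap, as the same palindromic stretch read on each strand.
Cox5b: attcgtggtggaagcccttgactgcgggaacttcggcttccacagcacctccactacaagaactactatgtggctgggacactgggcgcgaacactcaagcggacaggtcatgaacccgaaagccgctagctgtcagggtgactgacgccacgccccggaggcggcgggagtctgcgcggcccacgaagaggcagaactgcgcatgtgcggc
Ndufs6: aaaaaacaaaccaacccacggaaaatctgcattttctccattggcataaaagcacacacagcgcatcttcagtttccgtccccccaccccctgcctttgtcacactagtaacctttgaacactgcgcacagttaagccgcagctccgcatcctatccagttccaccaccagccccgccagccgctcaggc
Ndufs5: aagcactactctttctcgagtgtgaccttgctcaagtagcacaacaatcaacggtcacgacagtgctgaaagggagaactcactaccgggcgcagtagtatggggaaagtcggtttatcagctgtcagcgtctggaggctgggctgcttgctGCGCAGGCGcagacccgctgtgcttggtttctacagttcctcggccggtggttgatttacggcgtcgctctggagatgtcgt
Cox6a1: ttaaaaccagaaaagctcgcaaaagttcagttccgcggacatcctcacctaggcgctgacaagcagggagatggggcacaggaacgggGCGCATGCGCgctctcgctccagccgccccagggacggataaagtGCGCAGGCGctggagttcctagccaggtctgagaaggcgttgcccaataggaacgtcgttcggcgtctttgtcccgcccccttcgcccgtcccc

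The transcription factors whose letters were searched had values in opposite directions. Gabpb1, the beta subunit of GABP and the regulator with the smallest p, was at 36.9, 37.7, 34.7 and 37.5 CPM in young and at 24.1, 27.1 and 29.8 CPM in old libraries, with a log2 fold change of -0.44 ± 0.12 SE (edgeR, adjusted p = 0.112). Gabpa, the alpha subunit, was also named after its values were seen. It had a log2 fold change of -0.15 ± 0.13 SE (edgeR, adjusted p = 0.578), and its ages overlapped. Nrf1 had a log2 fold change of -0.33 ± 0.11 SE (edgeR, adjusted p = 0.180), Yy1 of 0.46 ± 0.13 SE (edgeR, adjusted p = 0.132) and Polrmt, the mitochondrial RNA polymerase, of -0.67 ± 0.20 SE (edgeR, adjusted p = 0.134), the last 3 named after their values were seen. Ppargc1a (PGC-1alpha), a coactivator of respiratory genes that was likewise named after its values were seen, was sparse at 0.217, 0.201, 0.353 and 0.108 CPM in young and at 1.22, 0.562 and 0.410 CPM in old libraries, with a log2 fold change of 1.71 ± 0.60 SE (edgeR, adjusted p = 0.180). For Gabpb1, Nrf1, Yy1, Polrmt and Ppargc1a the ages did not overlap. Of the 15 regulators listed, the ages were separate for 2 genes higher and 4 lower in old. Among all 17559 genes tested, they were separate for 1523 higher and 1592 lower. Of the 15 nuclear regulators of mitochondrial genes listed, 4 were higher in old, 0 were called, and the median log2 fold change was -0.15.

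The 13 subunits encoded by the mitochondrial genome, which join complexes I, III, IV and V, were not higher as a list. Their median log2 fold change was -0.02 and 4 were above 0, with 0 called. Their summed level was 12743 to 19037 CPM in young and 24144, 11385 and 11552 CPM in old libraries, so that 2posI lay above and the other old libraries below all young ones. Library 3posI, high for the nuclear genes, was thus the lowest for these. The smallest p belonged to mt-Nd4l, a complex I core subunit, at 222, 229, 221 and 269 CPM in young and at 157, 111 and 98.9 CPM in old libraries, with a log2 fold change of -0.94 ± 0.18 SE (edgeR, adjusted p = 0.0564). Its expected count was whole in only 1 of 7 libraries. Its end (base 10173) overlaps the start (base 10167) of mt-Nd4, which had a log2 fold change of -0.15 ± 0.28 SE (edgeR, adjusted p = 0.810).

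Genes that assemble the complexes were close to the background or moderately above it. Medians were 0.11 over 15 complex I factors, 0.11 over 4 of complex II, 0.27 over 6 of complex III, 0.16 over 22 of complex IV and 0.09 over 4 of complex V, and 0 were called. Uqcc2, needed for cytochrome b and complex III assembly, was at 36.1, 34.1, 42.6 and 43.2 CPM in young and at 61.4, 54.8 and 48.5 CPM in old libraries, with a log2 fold change of 0.49 ± 0.14 SE (edgeR, adjusted p = 0.123). Pet117, a complex IV factor, had the lowest value of these lists at -1.95 ± 0.49 SE (edgeR, adjusted p = 0.10), at 1.08 to 1.81 CPM in young and 0.209 to 0.669 CPM in old libraries, and its expected counts were whole in no library. Tmem186 of complex I had a log2 fold change of -0.44 ± 0.16 SE (edgeR, adjusted p = 0.203), Sdhaf4 of complex II 0.35 ± 0.15 SE (edgeR, adjusted p = 0.240) and Atpaf2 of complex V 0.25 ± 0.12 SE (edgeR, adjusted p = 0.304).

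Among the 12 genes of mobile electron carriers and ubiquinone synthesis, 5 were higher in old and the median was -0.01. Cycs, cytochrome c, was at 20.7, 19.4, 21.8 and 22.2 CPM in young and at 28.6, 32.7 and 24.4 CPM in old libraries, with a log2 fold change of 0.44 ± 0.14 SE (edgeR, adjusted p = 0.143) and no overlap between ages. The 12 tested genes of the TCA cycle had a median of 0.03 with 7 above 0, and Suclg1, a subunit of succinyl-CoA ligase, had the smallest p among them (0.42 ± 0.13 SE, adjusted p = 0.141). Of the 4 tested subunits whose names fall outside the patterns, 3 were above 0, with a median of 0.24, and Usmg5, a small ATP synthase subunit, had a log2 fold change of 0.33 ± 0.16 SE (edgeR, adjusted p = 0.305).

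The values of the set were close to those of the mitochondrial ribosome. The 78 mitochondrial ribosomal protein genes had a median log2 fold change of 0.30, with 73 above 0 and 31 higher in old at an unadjusted p under 0.05. The 81 cytosolic ribosomal protein genes had a median of 0.18, with 61 above 0 and 16 higher at that p. Of both lists, 0 genes were called. No test of a difference between these lists and the respiratory chain was made, and nothing here is particular to the respiratory chain.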

How the data were processed

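RNA of sorted Bodipy+ microglia was made into non-stranded Smart-seq2 libraries from polyA RNA, with no molecular identifiers named, and sequenced, 1 library per mouse. Per the study's methods, the authors checked reads with FastQC (0.11.5), trimmed them with skewer, mapped them with STAR to GRCm38 and quantified GENCODE m15 with RSEM (for STAR and RSEM no version is given in the sources used here). The deposited expected counts are estimated counts and not normalized. The deposited TPM, scaled per length within each library by the authors, served only for levels within a library and were not tested. The authors' effective length per gene was used as an offset in 1 alternative.

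For the tests, the counts were rounded to integers. As in the authors' filter, a gene was kept with more than 10 expected counts in any library, and 614 genes of X, Y and M were dropped, which left 17559. The edgeR 4.0.16 quasi-likelihood test (R 4.3.3, TMM factors, age group as the only term) compared old with young, adjusted over all genes tested by Benjamini-Hochberg, with a threshold of 0.05. Libraries held 36574083 to 53002386 expected counts in all, so for most of these genes the spread between mice, not counting error, sets the precision. The p-values set the difference between ages against the spread among these 7 mice within their groups, moderated over all genes tested. Positions and overlaps came from GENCODE vM21 (GRCm38). Motifs were searched by their letters. The models were tested on simulated data, where DESeq2 made false calls more often than edgeR and edgeR missed more of the planted changes. The simulated counts used dispersions estimated by edgeR. The planted changes were larger than the fitted changes of most genes of the set, so differences of that size were not covered.

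The genes, gene lists and alternatives were chosen with earlier results of these data known, so no test over a list was made. Genes named in full are, per complex, the 3 with the smallest p and the highest and lowest mean TPM, the paralogous isoforms, all X-linked and complex II genes, and the smallest p in each pathway list. Alternatives were limma-voom with and without quality weights (limma 3.58.1), DESeq2 1.42.0, RLE and upper-quartile factors, the length offset, no filter, filterByExpr, X, Y and M kept, length and GC trends removed (lowess span 0.3), looser thresholds and each library left out. The length trend used the annotated exon length of each gene.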

Additional observations from a re-analysis of the deposited data

Results flagged for a closer look

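In the 4 young mice, the gap of the farthest library to the nearest other, as a share of the whole range, was above Dixon's 95% critical value for 4 samples in 7 of 93 levels tested, where chance flags about 1 in 20, or 4.7 here. The old group of 3 was not tested. Library 23C was the far one for Ndufs1 (gap share 0.995, 71.4 CPM against 58.9 to 59.0 CPM), Atp5b (0.907, 675 CPM against 484 to 502 CPM), Atp5d (0.845, 154 CPM against 122 to 127 CPM) and Cox6a2 (0.898, 8.43 CPM against 13.6 to 14.2 CPM, the far library being low). Library 29C was the far one for Ndufb4 (0.972, 13.2 CPM against 9.61 to 9.71 CPM), Cox7a2 (0.962, 114 CPM against 98.2 to 98.8 CPM) and Cox7c (0.899, 112 CPM against 91.9 to 93.9 CPM), each high.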

How the results depend on the processing

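No paired analysis was made, because the ages are different mice and the labels give no pairing. Genes of the set past the threshold numbered 0 in edgeR and 0 in limma-voom, RLE, upper-quartile, effective-length, filter, X-kept and trend alternatives, but 1 with limma-voom quality weights (Cox6a2), 3 with DESeq2, 0 to 1 with a library left out (1 without 3posI), 1 at an adjusted p under 0.1 and 36 at an unadjusted p under 0.05. That last count was 11 without 2posI, 12 without 3posI, 16 without 14C or 18C and 49 without 4posI. Genes above 0 numbered 68 to 75 of 79, and 76 of 82 with X, Y and M kept, and the 3 X-linked genes were never called. DESeq2 called 6 of 94 other pathway genes, where it called 9.51% of all genes that it gave an adjusted p, and edgeR called 0. Complex medians ranged over all alternatives from 0.26 to 0.43 (I), 0.13 to 0.31 (II), 0.17 to 0.30 (III), 0.17 to 0.36 (IV) and 0.19 to 0.37 (V), and only that of complex IV moved by more than the spread between libraries, to 0.17 with the length trend removed. Directions turned for 12 genes. With the length trend removed the log2 fold changes were -0.0279 (Atp5s), -0.0701 (Cox6b2), -0.0337 (Cox8a), -0.0153 (Uqcrfs1) and -0.0390 (Uqcrh). With the GC trend removed they were -0.00466 (Atp5s), 0.0294 (Cox4i1) and 0.0267 (Ndufa4l2), and with the effective-length offset 0.000792 (Cox7a2l), 0.14 (Ndufa4l2) and -0.11 (Sdha). Sdha was -0.0133 with upper-quartile factors and -0.000554 with no filter, Atp5s -0.00394 with limma-voom and Cox7a2l 0.0161 with quality weights. With a library left out the ranges were -0.0572 to 0.17 (Atp5d), -0.13 to 0.25 (Atp5g3), -0.17 to 0.26 (Atp5s), -0.16 to 0.0148 (Atp5sl), -0.11 to 0.0352 (Cox4i1), -0.0516 to 0.22 (Cox6b2), -0.22 to 0.16 (Cox7a2l), -0.64 to 0.20 (Ndufa4l2), -0.0238 to 0.0781 (Sdha) and -0.00100 to 0.18 (Uqcrh). The cause of these changes was not tested. Counts under 100 limit Cox8b, Cox4i2, Cox6b2 and Ndufa4l2.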
